A study of Mus musculus with 8 samples.

Results

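Toll-like receptor signaling carries its own brakes, and 10 genes that encode such feedback regulators were followed across the cell classes of MC38 tumors: Irak3, Ikbke, Tnip3, Tnip1, Tnfaip3, Nfkbia, Nfkbiz, Socs3, Socs1 and Zc3h12a. They are 10 of the 24787 genes listed in the count tables, and they were chosen by name as known regulators, with earlier results of these data known, and with no threshold on the measurements. MC38 is a colon carcinoma cell line of C57BL/6 mice, grown here as tumors in such mice. Single cells were captured on Seq-Well arrays 24 hours after saline (n = 3 tumors), free R848 (n = 3), or medium R848-BPD (n = 2). R848 is a small-molecule agonist of the endosomal receptors TLR7 and TLR8. R848-BPD is a bottlebrush polymer prodrug from which R848 is released by cleavage of a linker, and "medium" names its release rate among the prodrugs made. Each tumor came from 1 mouse, all tumors derive from 1 cell line, and CD45+ cells were loaded in excess of CD45- cells, so shares of cell classes are set in part by that loading.

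When TLR7 or TLR8 binds its ligand, the adaptor MyD88 gathers IRAK kinases, TRAF6 and TAK1, and the IKK complex then frees NF-kB to enter the nucleus. NF-kB in turn induces genes that close the pathway at each level, from the receptor complex to the mRNAs of the cytokines made. Myeloid cells that have met a TLR ligand carry raised levels of several of these genes, and IRAK-M, the product of Irak3, is a textbook mediator of the reduced response to a later stimulus.

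Of 10791 barcodes, 9886 cells were kept. The depth of the tumors ranged from 5867590 to 12422614 UMIs, and the median from 3247 to 6928 UMIs per kept cell. Clusters were named by markers, and 6 classes held enough cells to be tested: monocyte/macrophage-like (5310 cells), MC38-like (1935), NK-like (1038), DC-like (664), T-like (614) and neutrophil-like (136). UMIs were summed per tumor and class, levels are given as CPM (UMIs relative to the total of that sum, after TMM scaling), and differences were tested with the edgeR quasi-likelihood test, adjusted over all genes tested in that class and called at an adjusted p under 0.05. Saline replicate 2 stood apart from the other saline tumors: the chi-square per degree of freedom of its counts was 33.8 and 36.7 against theirs, and 5.94 to 9.76 in the other pairs of tumors of 1 group. Values without it are given where they change a call. In all, 23 barcodes occurred in more than 1 tumor, which touched 59 kept cells, and leaving these cells out changed no call of the 10 genes.

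Positions are given on GRCm38 (GENCODE vM21 annotation). Irak3 spans chr10:120141648-120202130 and Ikbke chr1:131254343-131279606, both on the minus strand. Within these spans Irak3 shares 541 bases with Tmbim4 and 1697 with Gm47009, and Ikbke shares 1047 with Gm28914 and 3420 with Gm28913. All of these run on the opposite strand, and whether the counting used the strand is not given in the sources used here, so reads in the shared bases cannot be told apart. Tnip1 (chr11:54910785-54962917) holds the pseudogene Gm12230 on the opposite strand, and the other 7 genes overlap no annotated gene.

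RefSeq promoters on GRCm38.p6, from 250 bases before to 50 bases after a start site, were found for 9 of the 10 genes (11 promoters). Nfkbiz had no entry. They were searched on both strands for the NF-kB consensus, which occurs in 8.46% of 32851 mouse promoters of the same length, for GAAANNGAA, a repeat of the kind found in interferon-response elements (8.56%), and for TTCNNNGAA, the core bound by STAT factors (8.30%). The NF-kB consensus was present in the promoters of Tnip3, Tnip1, Tnfaip3 and Nfkbia, TTCNNNGAA in those of Tnip1 and Socs3, and GAAANNGAA in those of Irak3 (1 of its 2 start sites), Nfkbia and Socs1. No match of one motif overlapped one of another. None of these letters occurred in the Ikbke or Zc3h12a windows. The promoters below are shown because Irak3 and Ikbke were called in monocyte/macrophage-like cells, Tnip1 in DC-like cells and Nfkbia in neither. Capitals mark the GAAANNGAA match in Irak3 (on the other strand), the TTCNNNGAA match and then the NF-kB consensus in Tnip1, and the GAAANNGAA match (on the other strand) and then the NF-kB consensus in Nfkbia. A match is a description of the letters and not a bound site.
Irak3 promoter, chr10:120202081-120202380, minus strand: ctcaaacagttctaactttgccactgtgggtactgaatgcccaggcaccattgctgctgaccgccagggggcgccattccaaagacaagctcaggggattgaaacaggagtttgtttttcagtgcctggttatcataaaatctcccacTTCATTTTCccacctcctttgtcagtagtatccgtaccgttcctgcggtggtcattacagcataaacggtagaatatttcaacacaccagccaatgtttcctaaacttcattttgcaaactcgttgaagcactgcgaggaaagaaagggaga
Ikbke promoter, chr1:131279514-131279813, minus strand: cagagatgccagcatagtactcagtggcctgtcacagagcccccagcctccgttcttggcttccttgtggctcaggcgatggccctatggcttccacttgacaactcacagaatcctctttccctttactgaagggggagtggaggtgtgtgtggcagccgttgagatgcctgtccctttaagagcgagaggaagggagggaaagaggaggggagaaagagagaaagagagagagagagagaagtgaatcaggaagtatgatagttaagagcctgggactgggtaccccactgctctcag
Tnip1 promoter, chr11:54962891-54963190, minus strand: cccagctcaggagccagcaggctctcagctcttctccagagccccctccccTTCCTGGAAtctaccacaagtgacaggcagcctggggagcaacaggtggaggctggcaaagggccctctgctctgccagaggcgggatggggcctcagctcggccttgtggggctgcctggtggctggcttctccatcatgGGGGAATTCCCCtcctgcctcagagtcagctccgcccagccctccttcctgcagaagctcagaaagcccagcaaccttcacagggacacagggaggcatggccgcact
Nfkbia promoter, chr12:55492598-55492897, minus strand: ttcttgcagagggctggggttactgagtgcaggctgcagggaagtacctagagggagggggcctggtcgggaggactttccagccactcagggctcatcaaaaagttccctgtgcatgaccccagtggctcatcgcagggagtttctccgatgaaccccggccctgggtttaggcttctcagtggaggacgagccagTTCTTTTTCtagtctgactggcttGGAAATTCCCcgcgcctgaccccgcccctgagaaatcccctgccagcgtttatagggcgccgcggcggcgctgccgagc

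The first question was whether the macrophages and monocytes that express TLR7 carried more of these brakes after the prodrug than after free drug. In monocyte/macrophage-like cells, Irak3 and Ikbke rose after medium R848-BPD against free R848, by 3.03-fold and 2.32-fold. The other 8 genes were not called, and the levels of Socs3, Socs1, Nfkbia, Tnfaip3 and Zc3h12a overlapped between the tumors of both groups. The count of 2 called among 10 members stands beside 1.58% of all 10539 genes tested, and since the genes were chosen with earlier results known, it is no independent evidence. The median log2 fold change of the 10 members was 0.07, and that of all genes −0.01.

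**Figure D1:**
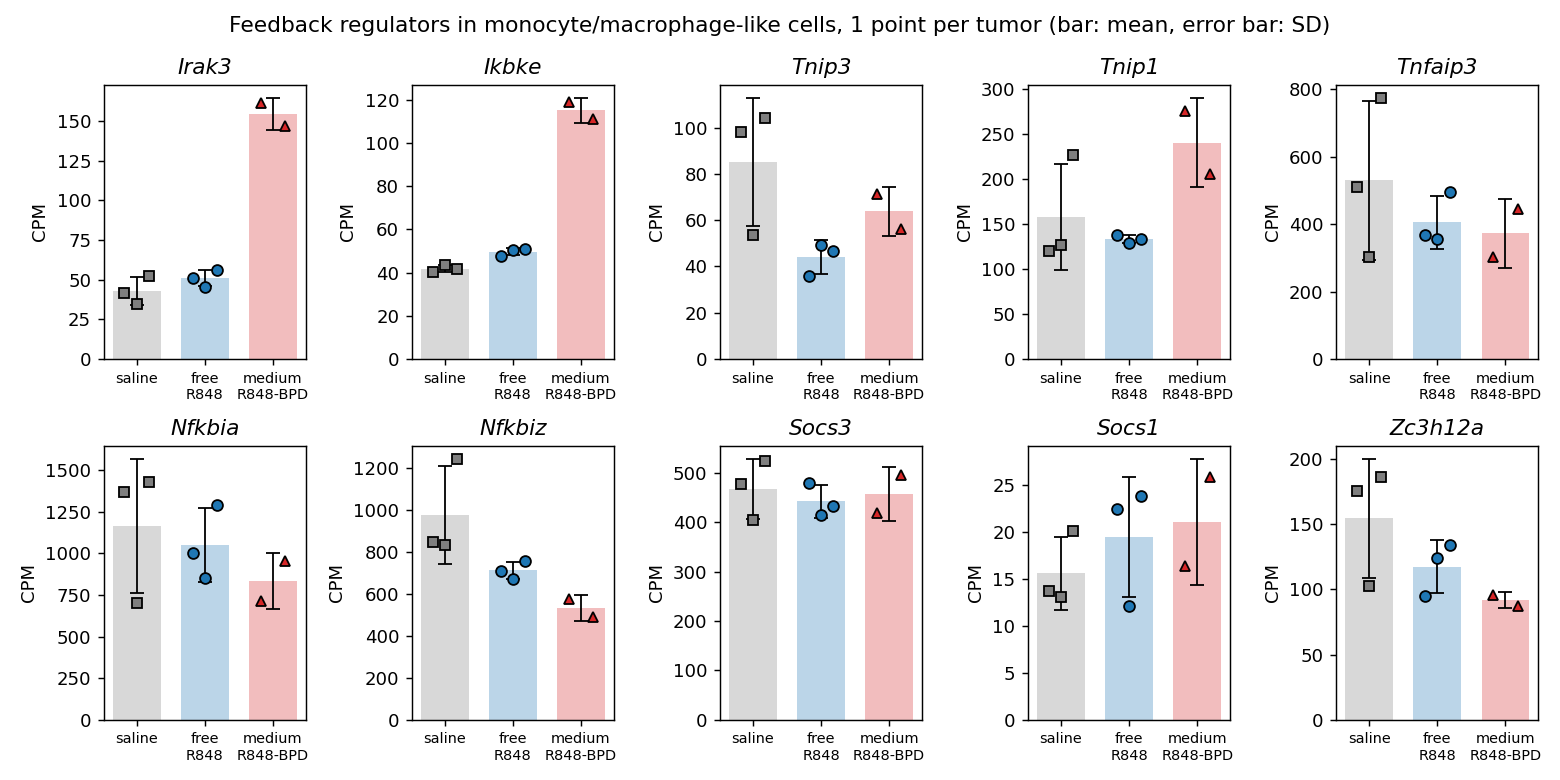
Level (CPM, linear axis from 0) of each of the 10 genes in monocyte/macrophage-like cells by treatment, with 1 point per tumor, bars at the mean and error bars of 1 SD (saline n = 3, free R848 n = 3, medium R848-BPD n = 2). For Irak3 and Ikbke both medium R848-BPD tumors, at 147 or more and 111 or more CPM, lie above every other tumor, whereas for Nfkbia and Tnfaip3 the groups overlap.

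Irak3 encodes IRAK-M, a pseudokinase that holds back the active IRAK kinases at the MyD88 complex. Its level was 51.3, 45.7 and 56.2 CPM in the free R848 tumors, 161 and 147 CPM in the medium R848-BPD tumors, and 41.6, 34.9 and 52.5 CPM in the saline tumors. Both medium R848-BPD tumors were above all others, and free R848 and saline overlapped. The log2 fold change of medium R848-BPD was 1.60 ± 0.17 (SE) against free R848 (edgeR adjusted p = 0.00476) and 1.86 ± 0.17 against saline (edgeR adjusted p = 0.00111). Free R848 against saline gave 0.26 ± 0.16 (edgeR adjusted p = 0.57). These sums rest on 144 to 213 UMIs per free R848 tumor and 897 and 364 per medium R848-BPD tumor.

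Ikbke encodes IKK-epsilon, an NF-kB-inducible kinase related to TBK1 that acts on interferon regulatory factors and on other proteins of the pathway. Its level was 47.7, 50.7 and 50.8 CPM after free R848, 119 and 111 CPM after medium R848-BPD, and 40.1, 43.5 and 41.7 CPM after saline. The groups did not overlap in any of the comparisons, with saline lowest and medium R848-BPD highest. Medium R848-BPD differed from free R848 by 1.21 ± 0.11 on the log2 scale (edgeR adjusted p = 0.00188) and from saline by 1.46 ± 0.11 (edgeR adjusted p = 0.000408). The step from saline to free R848 was 0.25 ± 0.10 and did not pass the adjustment (edgeR adjusted p = 0.413). Within the monocyte-like clusters alone, which held 34 and 12 cells of the medium R848-BPD tumors, Ikbke was no longer called against either group (0.61, adjusted p = 0.515, against free R848, and 0.85, adjusted p = 0.283, against saline, edgeR).

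Markers of other cell types were read in the same sums. In this class the 6 neutrophil markers summed to 25.7 to 44.6 CPM in the medium R848-BPD tumors and to 7.44 to 23.4 CPM in the free R848 tumors, against 14170 to 17915 CPM in neutrophil-like cells after medium R848-BPD. Of these, S100a8 was apart (19.9 to 29.4 and 2.97 to 8.68 CPM), while S100a9, Retnlg, Cxcr2, G0s2 and Mmp9 overlapped between the drugs. The 8 macrophage markers summed to 16732 to 19507 CPM after medium R848-BPD and 17598 to 23264 CPM after free R848, while the 6 monocyte markers were lower after medium R848-BPD (1413 to 1738 CPM) than after free R848 (2809 to 3660 CPM). The 5 osteoclast markers, all detected, also did not overlap between the groups: they summed to 920 to 1250 CPM after medium R848-BPD, 544 to 615 CPM after free R848 and 129 to 460 CPM after saline. Most of that sum was Acp5 (832 to 1191, 512 to 568 and 107 to 313 CPM), while Ocstamp was lower after medium R848-BPD (2.67 to 2.74 CPM) than after free R848 (4.53 to 14.9 CPM). The 4 mature DC markers summed to 25.9 to 46.5, 15.9 to 22.8 and 10.9 to 30.1 CPM in the same order, and the 6 fibroblast markers, with Lum at 0 in every tumor, to 27.0 to 45.0, 14.3 to 23.4 and 9.30 to 17.9 CPM. The part of these cell types in the Irak3 and Ikbke values was not tested. Genes of the dissociation response summed to 4560 to 5453 CPM after medium R848-BPD and 4816 to 6639 CPM after free R848, and none of 11 was called.

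The rise was present within clusters. Of 9 macrophage-like clusters, 8 held at least 10 cells in tumors of both drug groups, and in each of these 8 the Irak3 level of every medium R848-BPD tumor lay above that of every free R848 tumor. The same held for Ikbke and for Tnip1, which makes 3 of the 10 members, beside 0.342% of all 10539 genes. Cluster means of Irak3 ranged from 105 to 272 CPM after medium R848-BPD and from 33.7 to 72.4 CPM after free R848, and those of Ikbke from 57.5 to 179 CPM and from 37.9 to 61.0 CPM. In the pair of monocyte-like clusters, each with 1 medium R848-BPD tumor, all 3 genes were also higher in that tumor. The cluster led by Mmp12 made up 16.9% of the class after medium R848-BPD and 7.85% after free R848, and the monocyte-like cluster led by Chi3l3 1.76% and 9.46%. Members and list genes were left out of the clustering, and these within-cluster values are descriptions with no test.

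**Figure D2:**
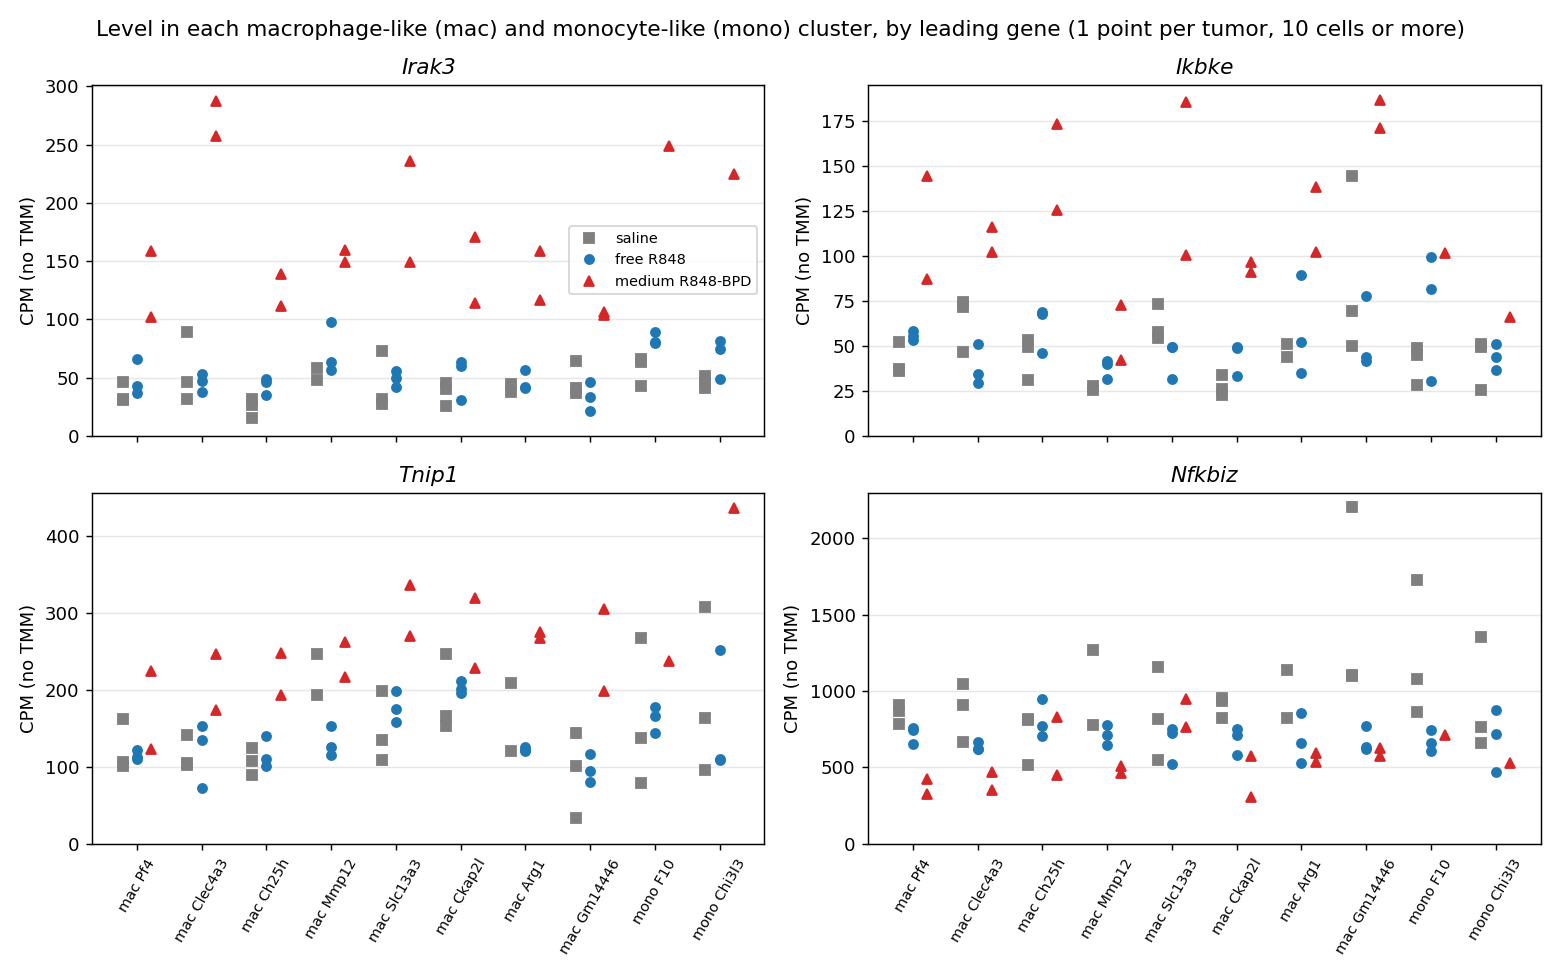
Level (CPM without TMM scaling) of Irak3, Ikbke, Tnip1 and Nfkbiz in each macrophage-like (mac) and monocyte-like (mono) cluster, named by its leading gene, with 1 point per tumor that had 10 cells or more. In all 8 macrophage-like clusters shown the medium R848-BPD points of Irak3, Ikbke and Tnip1 lie above the free R848 points, which was not so for Nfkbiz.

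The same pattern was seen as a share of cells. After each cell was thinned to 1000 UMIs, monocyte/macrophage-like cells held an Irak3 UMI in 14.5% ± 0.68 (SD, n = 2) of cases after medium R848-BPD, 3.64% ± 0.97 (n = 3) after free R848 and 4.03% ± 0.46 (n = 3) after saline. For Ikbke the shares were 10.8% ± 1.90, 4.61% ± 0.77 and 4.19% ± 0.77. Without thinning the shares were 52.6%, 23.2% and 17.2% for Irak3 and 41.9%, 22.4% and 18.0% for Ikbke. The median depth of the whole class was 5278.5, 5121 and 4835 UMIs per cell after medium R848-BPD, free R848 and saline, and 1, 8 and 25 cells under 1000 UMIs were left out by the thinning. Whether the carcinoma cells express Irak3 was not tested, and 96 of the 1935 MC38-like cells were gated singly as monocyte/macrophage-like. MC38-like cells had thinned Irak3 shares of 0.0% to 1.21% over the 8 tumors, at median depths of 10140, 10093 and 10234 UMIs per group. In 5 of these tumors the Irak3 count was 0 of 111 to 293 cells, which allows shares of up to 1.02% to 2.70% per tumor, from counting error alone. The lowest monocyte/macrophage-like share of Irak3 in any tumor was 3.05%. For Ikbke the MC38-like shares were 0.0% to 1.94%, and the lowest monocyte/macrophage-like share was 3.49%. At full depth, both UMIs occurred together in 32.0% and 18.8% of the cells of the medium R848-BPD tumors, and in 10.1%, 4.97% and 4.66% after free R848. The products of the single shares were 29.0% and 16.1%, and 7.81%, 4.35% and 3.84%.

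**Figure D3:**
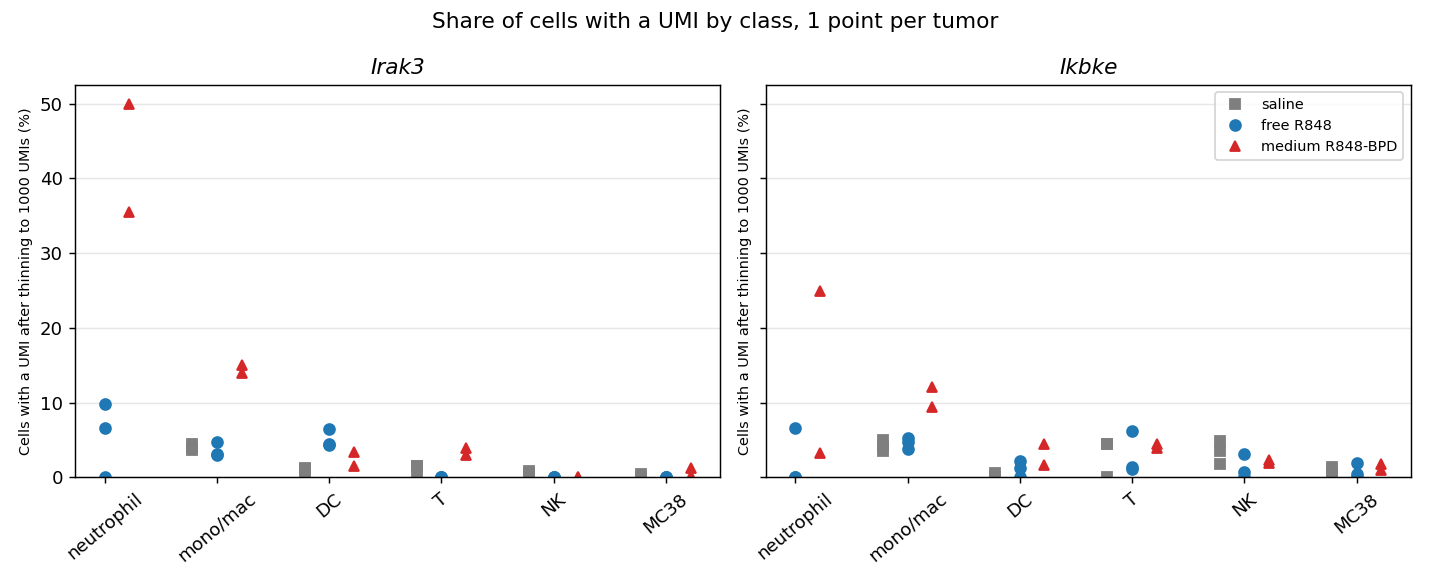
Share of cells (%) with an Irak3 or Ikbke UMI after thinning to 1000 UMIs per cell, by class and treatment, with 1 point per tumor. In monocyte/macrophage-like cells the medium R848-BPD tumors lie at 14.0% and 14.99% for Irak3, above 3.05% to 4.75% after free R848, and in MC38-like cells all points lie under 2%.

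Downstream of the receptor, A20 (Tnfaip3) edits the ubiquitin chains on which IKK is activated, and the ABIN protein of Tnip1 binds such chains and helps A20. Tnip3 encodes a related ABIN protein. Tnip1 stood at 137, 129 and 134 CPM after free R848, 276 and 205 CPM after medium R848-BPD, and 120, 127 and 226 CPM after saline. Both medium R848-BPD tumors were above the free R848 tumors, but 1 saline tumor was above the lower of them. The log2 difference from free R848 was 0.85 ± 0.26 and was not called (edgeR adjusted p = 0.157). It was called without saline replicate 3 (0.86, edgeR adjusted p = 0.0315), with only the drug groups fitted (0.86, edgeR adjusted p = 0.0149) and with no filter on low counts (0.87, edgeR adjusted p = 8.83e-05). Against saline it was called without saline replicate 3 (0.96, edgeR adjusted p = 0.0157) and with no filter (0.63, edgeR adjusted p = 0.00837).

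Tnip3 was at 35.7, 49.3 and 46.9 CPM after free R848, 71.3 and 56.2 CPM after medium R848-BPD, and 98.1, 53.5 and 104 CPM after saline. Free R848 lay below both other groups, and medium R848-BPD overlapped with saline. No difference was called, with 0.55 ± 0.28 for medium R848-BPD against free R848 (edgeR adjusted p = 0.423) and −0.94 ± 0.25 for free R848 against saline (edgeR adjusted p = 0.299). Without saline replicate 2 the latter was −1.20 (edgeR adjusted p = 0.0167). Tnfaip3 was at 366, 355 and 495 CPM after free R848, 301 and 446 CPM after medium R848-BPD, and 512, 303 and 774 CPM after saline. All groups overlapped, with −0.12 ± 0.35 between the drugs (edgeR adjusted p = 0.924).

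The IκB proteins act on NF-kB itself. IκB-alpha (Nfkbia) retains NF-kB in the cytoplasm, and IκB-zeta (Nfkbiz) is a nuclear member that is needed for a secondary set of targets such as Il6 and restrains others. Nfkbiz was at 707, 671 and 756 CPM after free R848, 577 and 490 CPM after medium R848-BPD, and 848.03, 832 and 1243 CPM after saline. The groups did not overlap, and here the medium R848-BPD tumors were lowest. The log2 difference was −0.41 ± 0.20 from free R848 (edgeR adjusted p = 0.393), whereas Nfkbiz fell against saline by 0.87 ± 0.20 on the log2 scale (edgeR adjusted p = 0.036). That call was lost when any 1 of the free R848 or medium R848-BPD tumors or saline replicate 1 was left out, where the difference ranged from −0.75 to −0.99 and the edgeR adjusted p from 0.0629 to 0.271. It was also lost with only those groups fitted (−0.87, edgeR adjusted p = 0.127) and with the replicate number as a block (−0.73, edgeR adjusted p = 0.073). Nfkbia was at 1002, 853 and 1291 CPM after free R848, 715 and 952 CPM after medium R848-BPD, and 1367, 701 and 1427 CPM after saline. These groups overlapped, and the difference between the drugs was −0.33 ± 0.31 (edgeR adjusted p = 0.696).

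The remaining genes act on what the pathway makes. SOCS1 and SOCS3 block JAK kinases at cytokine receptors, and Regnase-1 (Zc3h12a) degrades mRNAs of cytokines such as Il6. Socs3 was at 479, 415 and 434 CPM after free R848, 418 and 495 CPM after medium R848-BPD, and 477, 404 and 524 CPM after saline. The difference between the drugs was 0.04 ± 0.16 on the log2 scale (edgeR adjusted p = 0.937). Socs1 ranged from 12.1 to 25.9 CPM over all 8 tumors, with overlapping groups. Zc3h12a was at 94.7, 124 and 134 CPM after free R848, 96.0 and 87.3 CPM after medium R848-BPD, and 175, 102 and 186 CPM after saline. Both medium R848-BPD tumors were below the saline tumors, with a difference of −0.74 ± 0.26 that was not called (edgeR adjusted p = 0.116).

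Against saline, 3 of the 10 genes were called in monocyte/macrophage-like cells, Irak3 and Ikbke higher and Nfkbiz lower, beside 7.48% of all genes. Without saline replicate 2 there were 6, beside 11.8% of all genes in that fit, with Nfkbia (−0.75, edgeR adjusted p = 0.0469), Tnip3 (−0.65, edgeR adjusted p = 0.0414) and Zc3h12a (−0.97, edgeR adjusted p = 0.0055) also lower. Monocyte-like clusters held 44 of the 938 cells of saline replicate 2, but 265 of 750 and 229 of 683 in replicates 1 and 3. In the medium R848-BPD tumors they held 34 of 694 and 12 of 500 cells. The part of this shift in the differences with saline was not tested. Free R848 against saline called 0 of the 10 genes with edgeR, beside 0.019% of all genes, and 0 with DESeq2, beside 0.313%. At an unadjusted p under 0.05 in edgeR there were 3 of the 10, beside 11.3% of all genes. Without saline replicate 2 edgeR called 1, Tnip3, beside 1.11% of all genes.

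**Figure D4:**
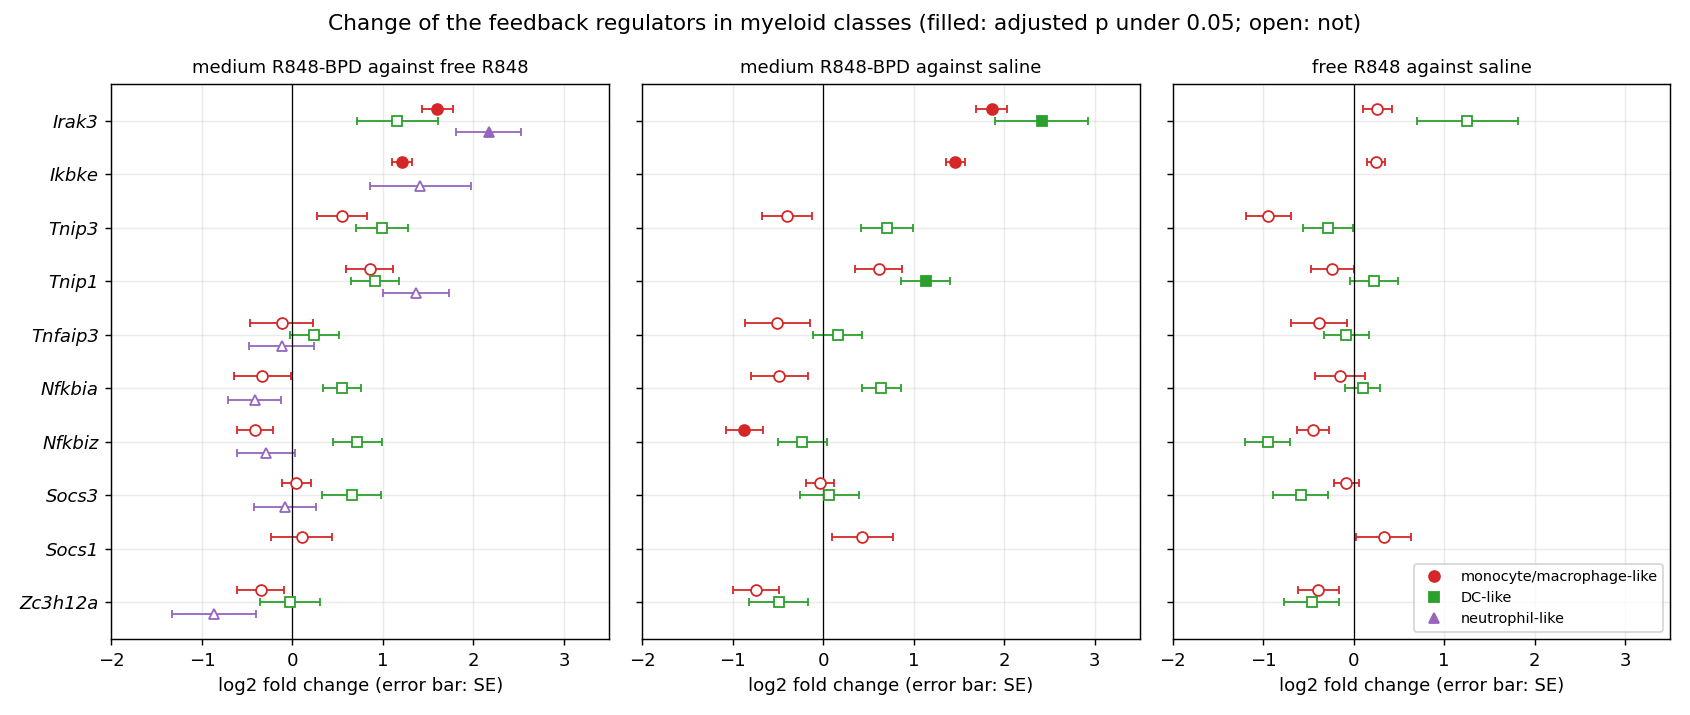
Log2 fold change (error bars of 1 SE) of each gene in monocyte/macrophage-like, DC-like and neutrophil-like cells for medium R848-BPD against free R848, medium R848-BPD against saline and free R848 against saline; filled symbols have an adjusted p under 0.05, and genes under the filter on low counts are not drawn. Irak3 lies to the right of 0 in every class drawn and is filled in monocyte/macrophage-like cells (1.60) and neutrophil-like cells (2.17) against free R848.

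DC-like cells came from a cluster led by Il12b that holds mature DC markers and from a cDC2-like cluster led by Kmo. The former made up 87.7% of the class after medium R848-BPD, 61.7% after free R848 and 23.9% after saline. Differences between the drugs and, more so, with saline hold that shift. After free R848 the mean levels in the clusters led by Il12b and Kmo (CPM without TMM scaling) were 225 and 40.9 for Tnip3. They were 214 and 76.2 for Tnip1 and 1190 and 712 for Nfkbia. The order was the other way for Nfkbiz (281 and 364) and Socs3 (131 and 241). The part of the shift in the differences was not tested. Ikbke and Socs1 were under the filter on low counts, and 8 genes were tested. Against free R848 edgeR called 0 of 8, beside 0.653% of all 5977 genes, and DESeq2 also 0, beside 0.87%. At an unadjusted p under 0.05 there were 5 of 8, beside 11.5% of all genes. The same number, 5 of 8, were higher in both medium R848-BPD tumors than in every free R848 tumor, beside 12.9% of all genes. The median log2 fold change of all 8 tested genes was 0.69, and that of all genes −0.02.

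Irak3 in DC-like cells was at 20.1, 30.4 and 33.9 CPM after free R848, 82.7 and 39.0 CPM after medium R848-BPD, and 8.32, 29.0 and 10.7 CPM after saline. Both medium R848-BPD tumors were highest, and the saline sums rest on 7, 4 and 3 UMIs. Irak3 rose against saline by 2.41 ± 0.51 on the log2 scale (edgeR adjusted p = 0.00643), and the difference from free R848 was 1.16 ± 0.45 (edgeR adjusted p = 0.315). The call against saline was lost without medium R848-BPD replicate 1 (1.65, edgeR adjusted p = 0.264) and without saline replicate 1 (1.88, edgeR adjusted p = 0.0892). In the cluster with mature DC markers alone the difference was 2.96 (edgeR adjusted p = 0.084), and in the cDC2-like cluster alone 2.59 (edgeR adjusted p = 0.484).

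Tnip1 in DC-like cells was at 237, 146 and 163 CPM after free R848, 370 and 302 CPM after medium R848-BPD, and 124, 138 and 208 CPM after saline. Both medium R848-BPD tumors were above all others. Tnip1 rose against saline by 1.13 ± 0.27 (edgeR adjusted p = 0.0123), and the difference from free R848 was 0.91 ± 0.27 (edgeR adjusted p = 0.153). The call against saline was lost without medium R848-BPD replicate 1 (0.97, edgeR adjusted p = 0.139), without saline replicate 1 (0.93, edgeR adjusted p = 0.0916), with cells gated singly by markers (0.94, edgeR adjusted p = 0.0953) and with an equal number of cells per tumor (1.06, edgeR adjusted p = 0.107). It was also lost in the cluster with mature DC markers alone (0.62, edgeR adjusted p = 0.36) and in the cDC2-like cluster alone (0.83, edgeR adjusted p = 0.606). With Irak3, it made 2 of 8 called against saline, beside 14.5% of all genes. Of 11 genes of the dissociation response 3 were lower in the same comparison, Fos (−1.03), Fosb (−2.44) and Ier2 (−0.996), and their part in these values was not tested.

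Tnip3 in DC-like cells was at 273, 116 and 148 CPM after free R848, 364 and 331 CPM after medium R848-BPD, and 215, 196 and 225 CPM after saline. Medium R848-BPD lay above both other groups, with 0.99 ± 0.29 against free R848 (edgeR adjusted p = 0.147). Without free R848 replicate 1, the highest tumor of its group, Tnip3 and Tnip1 were both called against free R848 (1.42, edgeR adjusted p = 0.0035, and 1.15, edgeR adjusted p = 0.0236). Nfkbia was at 1257, 1041 and 913 CPM after free R848, 1315 and 1817 CPM after medium R848-BPD, and 1000, 929 and 1063 CPM after saline, with 0.64 ± 0.21 against saline (edgeR adjusted p = 0.0563). It was called against saline without free R848 replicate 1 (0.66, edgeR adjusted p = 0.0208) or 3 (0.67, edgeR adjusted p = 0.0489), and Tnip3 without replicate 1 (0.72, edgeR adjusted p = 0.0173). With only those groups fitted both were called (0.67, edgeR adjusted p = 0.0313, and 0.73, edgeR adjusted p = 0.0225). Nfkbia was also called without marked doublets, at both other clustering resolutions and with clusters from all variable genes (0.66 to 0.75, edgeR adjusted p = 0.0352 to 0.0486), and Tnip3 with cells gated singly (1.06, edgeR adjusted p = 0.0363). Nfkbiz was at 293, 364 and 299 CPM after free R848, 415 and 647 CPM after medium R848-BPD, and 531, 479 and 834 CPM after saline. Free R848 was lowest for Nfkbiz, at −0.95 ± 0.25 against saline (edgeR adjusted p = 0.0654, and 0.0469 without saline replicate 2).

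Tnfaip3, Socs3 and Zc3h12a of DC-like cells were not called in any comparison and gave differences between the drugs of 0.24 ± 0.27, 0.66 ± 0.33 and −0.03 ± 0.33. Free R848 against saline called 0 of 8 genes with edgeR, beside 1.79% of all genes, and 1, Nfkbiz, with DESeq2, beside 1.91%. At an unadjusted p under 0.05 there were 2, beside 18.5% of all genes. Ikbke, which was not tested, rested on 19 and 16 UMIs after medium R848-BPD (27.6 and 52.0 CPM) and on 3, 3 and 1 after free R848 (12.1, 8.28 and 3.08 CPM). Neutrophil markers, all 6 of them detected, summed to 237 to 286 CPM in DC-like cells after medium R848-BPD, against 3.78 to 18.9 CPM after free R848 and 0 to 6.77 CPM after saline. The 8 macrophage markers summed to 1467 to 2967, 1000 to 1712 and 1123 to 5099 CPM, and the 5 osteoclast markers to 386 to 460, 71.8 to 178 and 115 to 159 CPM. That osteoclast sum was mostly Acp5 after both drugs, while after saline Acp5 was at 28.8 to 76.1 and Dcstamp at 48.4 to 94.7 CPM. The part of such RNA in the DC-like values was not tested.

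Neutrophil-like cells were too few after saline to be tested, and 15 to 41 cells per tumor entered the comparison of the drugs. Irak3 was at 126, 113 and 97.5 CPM after free R848 (10, 7 and 12 UMIs) and 500 and 505 CPM after medium R848-BPD (46 and 53 UMIs). It rose by 2.17 ± 0.36 on the log2 scale, or 4.49-fold (edgeR adjusted p = 0.00539), and was the only 1 of 8 tested genes called, beside 1.3% of all 2157 genes. With an equal number of cells per tumor the difference was 2.15 (edgeR adjusted p = 0.205), and with cells gated singly by markers it was 2.003 (edgeR adjusted p = 0.0553). With the replicate number as a block it was 2.06 (edgeR adjusted p = 0.306), so the call was lost in all 3 of these fits. After thinning to 1000 UMIs, 42.7% ± 10.3 (SD, n = 2) of neutrophil-like cells held an Irak3 UMI after medium R848-BPD and 5.47% ± 4.99 (n = 3) after free R848 (81.6% and 30.4% without thinning). Markers of other cell types were present in these sums. The 4 mature DC markers summed to 259 to 278 CPM after medium R848-BPD and 10.9 to 14.0 CPM after free R848, where Ccr7, Ccl22 and Cacnb3 were at 0. The 5 osteoclast markers summed to 491 to 649 and 153 to 265 CPM, with Dcstamp at 0 in every tumor, and the 8 macrophage markers to 7298 to 9198 and 5145 to 13344 CPM. Of the 136 cells, 31 were gated singly as monocyte/macrophage-like and 90 as neutrophil-like. The part of such cells or RNA in the Irak3 value was not tested.

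In the same cells Tnip1 was at 290, 194 and 284 CPM after free R848 and 902 and 448 CPM after medium R848-BPD, a difference of 1.37 ± 0.37 (edgeR adjusted p = 0.1). Without medium R848-BPD replicate 2 it was 1.84 (edgeR adjusted p = 0.0405), with the 1 tumor left assumed to vary like the free R848 tumors. Ikbke was at 50.4, 64.6 and 56.8 CPM and at 196 and 114 CPM, on 4 to 18 UMIs per tumor, with 1.41 ± 0.55 (edgeR adjusted p = 0.33). Both genes were higher in each medium R848-BPD tumor. Nfkbia lay the other way, at 4270, 5349 and 5132 CPM after free R848 and 3824 and 3538 CPM after medium R848-BPD, and its difference of −0.42 ± 0.29 was not called (edgeR adjusted p = 0.661). Tnfaip3 (−0.12 ± 0.36), Nfkbiz (−0.29 ± 0.32), Socs3 (−0.09 ± 0.34) and Zc3h12a (−0.86 ± 0.46) overlapped between the groups and were not called. Tnip3 and Socs1, with 8 UMIs or fewer per tumor, were not tested.

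Among lymphocytes and tumor cells, edgeR called 0 members in every comparison. In T-like cells all 10 genes were tested, with 4, 2 and 2 at an unadjusted p under 0.05 for medium R848-BPD against free R848, medium R848-BPD against saline and free R848 against saline, and 0, 0 and 0 called by DESeq2. Of all genes 7.24%, 5.52% and 4.73% had such a p, while edgeR called 0.0578%, 0.0145% and 0.0% and DESeq2 0.275%, 0.39% and 0.0289%. Irak3 was at 3.34, 12.4 and 7.01 CPM after free R848, 40.1 and 74.3 CPM after medium R848-BPD, and 3.32, 10.4 and 4.62 CPM after saline, a difference between the drugs of 2.86 ± 0.61 (edgeR adjusted p = 0.221). The medium R848-BPD tumors were apart from the others. In all, 5 of the 10 genes were higher in both medium R848-BPD tumors than in every free R848 tumor, beside 11.9% of all genes. Tnip3 was at 3.34, 2.49 and 7.01 CPM after free R848 and 27.8 and 39.1 CPM after medium R848-BPD (2.93 ± 0.84, edgeR adjusted p = 0.409), on 1 or 2 UMIs per free R848 tumor, and after saline it was at 86.4, 31.1 and 9.24 CPM. Tnip1 was at 140, 159 and 267 CPM after free R848 and 347 and 324 CPM after medium R848-BPD (0.86 ± 0.32, edgeR adjusted p = 0.581). Ikbke was at 23.4, 42.3 and 52.6 CPM and at 57.6 and 82.1 CPM (0.83 ± 0.43, edgeR adjusted p = 0.754), and Socs3 at 78.5, 114 and 151 CPM and at 177 and 258 CPM (0.93 ± 0.28, edgeR adjusted p = 0.431). Saline tumors overlapped with medium R848-BPD for each of these 4 but Tnip1. The differences of Tnfaip3, Nfkbia, Nfkbiz, Socs1 and Zc3h12a, whose groups overlapped, ranged from −0.38 for Socs1 to 0.30 for Nfkbia. With no filter on low counts Irak3, Tnip3 and Tnip1 were called against free R848 (2.84, 2.92 and 0.86, edgeR adjusted p = 0.00011, 0.000731 and 0.0482). The 8 macrophage markers, which T cells lack, summed in T-like cells to 1996 to 4384 CPM after medium R848-BPD, 1349 to 2399 CPM after free R848 and 862 to 8086 CPM after saline, and the 6 neutrophil markers to 32.6 to 895, 6.55 to 245 and 0 to 3.11 CPM. Their part in these values was not tested.

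In NK-like cells 8 genes were tested (not Irak3 and Tnip3), and none had an unadjusted p under 0.05 (8.93%, 9.59% and 4.52% of all genes did). DESeq2 also called 0 in each comparison. The shares of all genes called, in the same order, were 0.0924%, 0.554% and 0.0116% with edgeR and 0.254%, 0.624% and 0.0116% with DESeq2. The differences between the drugs ranged from 0.01 for Zc3h12a to 0.56 for Nfkbia and 0.55 for Socs3, with 0.10 for Socs1, 0.20 for Tnfaip3, 0.31 for Ikbke, 0.37 for Tnip1 and 0.46 for Nfkbiz. Both medium R848-BPD tumors were above every free R848 tumor for 1 gene, Tnip1, beside 14.3% of all genes. Socs3 was at 63.5, 76.3 and 45.8 CPM after free R848, 55.6 and 164 CPM after medium R848-BPD, and 56.9 to 59.6 CPM after saline, so 1 tumor was high. Without medium R848-BPD replicate 1, Socs3 was called against free R848 (1.35, edgeR adjusted p = 0.0495) and against saline (1.47, edgeR adjusted p = 0.0362), a fit in which the group is that 1 high tumor and its spread is assumed to be that of the other groups. In MC38-like cells 9 genes were tested (not Irak3), with 2, 2 and 1 at an unadjusted p under 0.05, beside 14.3%, 14.5% and 8.11% of all genes, while 0.256%, 0.832% and 0.0% of all genes were called. DESeq2 called 1 of them, Nfkbia against saline (0.59, DESeq2 adjusted p = 0.0376), beside 2.02% of all genes called by DESeq2. Nfkbia was at 1023, 927 and 1125 CPM after free R848, 1442 and 1382 CPM after medium R848-BPD, and 1056, 1092 and 656 CPM after saline. The medium R848-BPD tumors were highest, at 0.46 ± 0.18 against free R848 (edgeR adjusted p = 0.269). Tnfaip3 was also higher in both medium R848-BPD tumors (64.5 and 63.6 CPM) than in every free R848 tumor (54.7, 48.0 and 50.5 CPM), at 0.32 ± 0.14 (edgeR adjusted p = 0.324), which made 2 of 9 with Nfkbia, beside 14.5% of all genes. The other 7 overlapped between the drugs, with differences of 1.14 ± 0.81 for Tnip3, 0.36 for Nfkbiz, 0.35 for Ikbke, 0.34 for Tnip1, 0.07 for Socs1, −0.09 for Socs3 and −0.19 for Zc3h12a.

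Whether the response of a gene differed between classes was tested directly, as the interaction of class and treatment with the tumor as a block, for each class against monocyte/macrophage-like cells. For Irak3 no such difference was called: the response to medium R848-BPD against free R848 was 0.61 ± 0.43 larger in neutrophil-like cells (edgeR adjusted p = 1.0) and differed by −0.46 ± 0.45 in DC-like cells (edgeR adjusted p = 0.95). For Nfkbia the response against saline was 1.14 ± 0.29 higher in DC-like cells (edgeR adjusted p = 0.0358), and for Nfkbiz 1.498 ± 0.29 higher in MC38-like cells (edgeR adjusted p = 0.0239). Within the DC-like clusters mean Nfkbia levels (CPM without TMM scaling) after medium R848-BPD and saline were 1524 and 1295 CPM in the cluster led by Il12b, which held 87.7% and 23.9% of the class, and 699 and 854 CPM in that led by Kmo, which had 10 cells or more in 1 medium R848-BPD tumor. The Nfkbia difference was lost without free R848 replicate 2, either medium R848-BPD tumor, saline replicate 1 or saline replicate 3 (0.96 to 1.14, edgeR adjusted p = 0.0533 to 0.195). That of Nfkbiz was lost without medium R848-BPD replicate 2 (1.46, edgeR adjusted p = 0.15) or saline replicate 1 (1.51, edgeR adjusted p = 0.0603). Each was the only member called in its comparison, beside 3.16% of all genes for DC-like cells and 2.35% for MC38-like cells. In total 2 of 130 such tests on the 10 genes were called, beside 0.599% over all genes and tests.

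The classes also differed in the level of each gene without regard to the prodrug. After free R848, Irak3 was at 112 ± 14.3 CPM (SD, n = 3) in neutrophil-like cells, 51.1 ± 5.29 in monocyte/macrophage-like cells, 28.1 ± 7.19 in DC-like cells and 7.60 ± 4.57 in T-like cells, each apart from the next in all tumors, and then at 1.78 among NK-like and 1.63 among MC38-like cells, which overlapped. Tnip3 was highest in DC-like cells, at 179 ± 83.1 CPM, apart from 43.9 ± 7.26 CPM in monocyte/macrophage-like cells. For Tnfaip3, Nfkbia, Nfkbiz, Socs3 and Zc3h12a the neutrophil-like cells were highest and apart from the next class, at 1733, 4917, 2631, 663 and 227 CPM. Nfkbiz and Socs3 came next in monocyte/macrophage-like cells (711 and 443 CPM), apart from DC-like cells (319 and 173 CPM). Nfkbia did not separate DC-like, monocyte/macrophage-like, MC38-like and T-like cells, at 1070, 1049, 1025 and 624 CPM, while NK-like cells were below them at 221 CPM. For Ikbke and Socs1 every class overlapped with its neighbors in the order, and Tnip1 and Tnfaip3 were lowest in MC38-like cells, at 78.2 and 51.0 CPM.

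**Figure D5:**
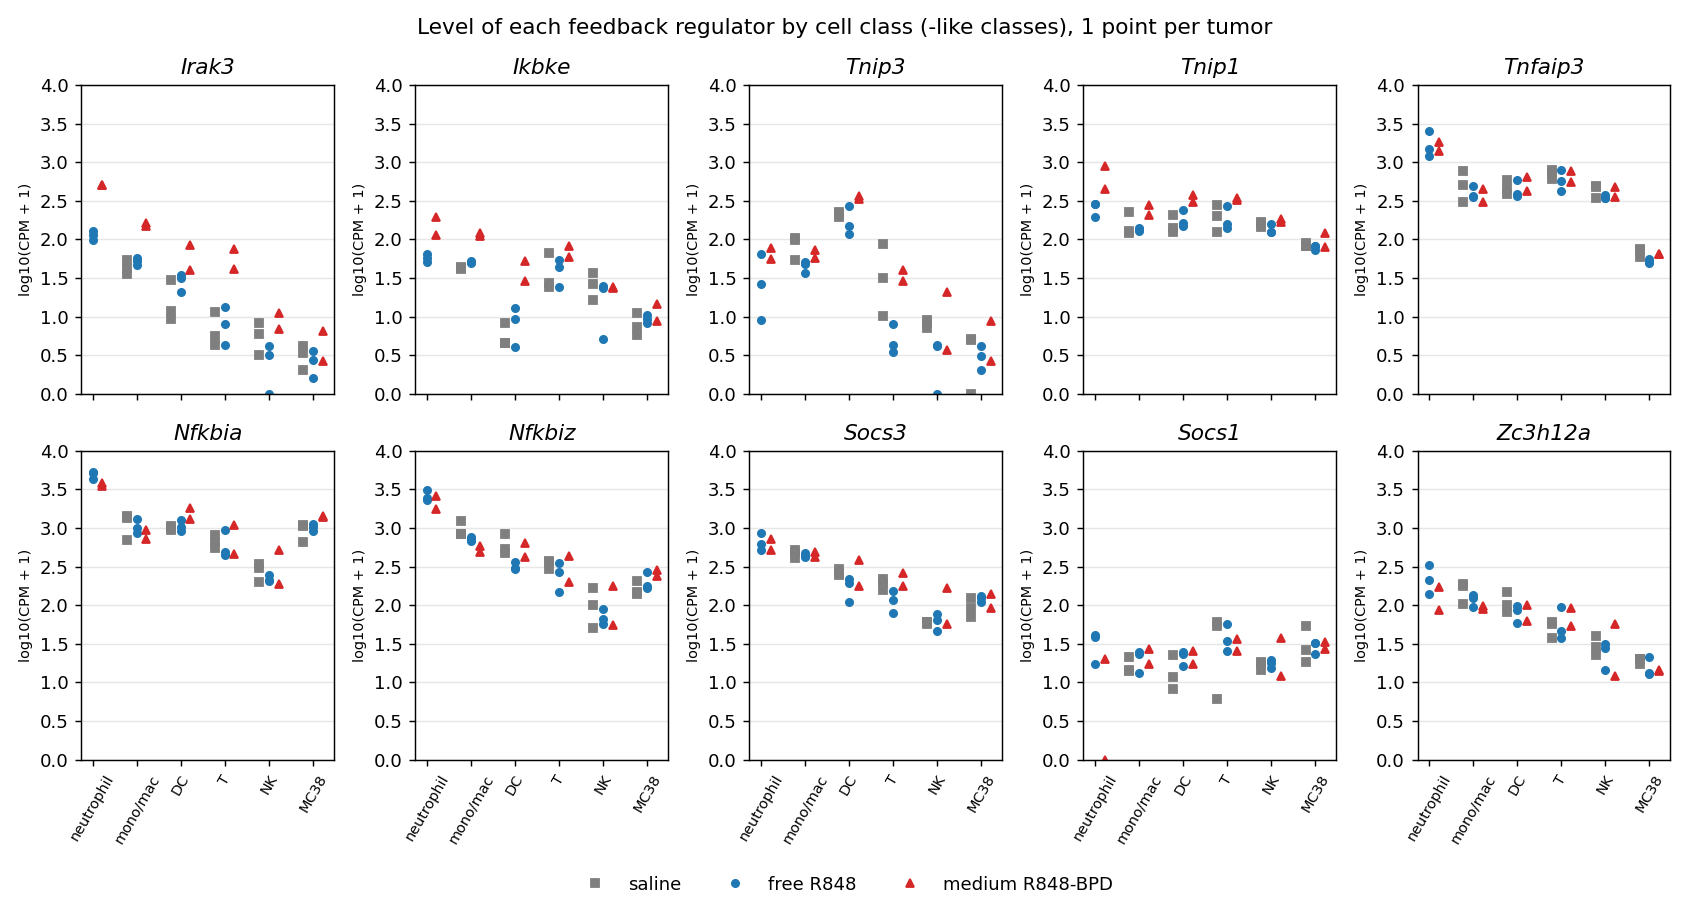
Level of each gene as log10(CPM + 1) by cell class and treatment, with 1 point per tumor with 10 cells or more in the class; neutrophil-like cells have no saline points. Irak3 stands at 112 CPM in neutrophil-like cells after free R848 and under 3 CPM in MC38-like cells, and its medium R848-BPD points are the highest in the 3 myeloid classes.

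Over the 45 sums of a tumor and class, the genes whose log2 level followed a member most closely were named, as a description of points that share libraries. They were Pla2g7 (Pearson r = 0.952) and Bst1 (0.947) for Irak3, Fyb (0.888) and Slc11a1 (0.860) for Ikbke, and Tnfrsf1b (0.973) and Srgn (0.969) for Tnfaip3. Tnip3 was followed by Rab43 (0.919) and Tbc1d9 (0.916), and Tnip1 by Rhog (0.863) and Tnfrsf1b (0.860). Nfkbia was followed by Oasl2 (0.932) and Rsad2 (0.921), Nfkbiz by Dusp1 (0.950) and Ptgs2 (0.949), and Socs3 by Bach1 (0.945) and Nfkbiz (0.941). For Zc3h12a they were Slc15a3 (0.946) and Cdkn1a (0.942), and for Socs1 Zfp236 (0.695) and Taf1c (0.689).

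The rest of the pathway was read from lists in the same fit. Of 29 further brakes, among them other IκB proteins, deubiquitinases and SOCS genes, 0 were called in monocyte/macrophage-like cells between the drugs, beside 1.58% of all genes. Their median log2 fold change was −0.01. Against saline 2 were called higher and 1 lower, beside 7.48% of all genes called. N4bp1 (0.54) and Usp18 (0.82) were higher and Nfkbid (−2.32) lower, which are named because the count was small, after their values were seen. In DC-like cells 26 of these brakes were tested, and 0 were called against free R848, beside 0.653% of all genes, and 6 higher and 3 lower against saline, beside 14.5% of all genes.

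Of 21 receptors and kinases, 1 was higher and 1 lower in monocyte/macrophage-like cells between the drugs, beside 1.58% of all genes called. Ikbkg, which encodes the IKK scaffold NEMO, rose from 26.0, 25.1 and 17.2 CPM after free R848 to 41.6 and 51.7 CPM after medium R848-BPD (1.01 ± 0.20, edgeR adjusted p = 0.0417). Tlr2, a receptor for bacterial lipoproteins, was at 373, 399 and 445 CPM after free R848 and fell to 210 and 153 CPM (−1.16 ± 0.22, edgeR adjusted p = 0.0409). Tlr7, the receptor of R848, was at 102, 100.2 and 99.96 CPM after free R848 and 95.2 and 110 CPM after medium R848-BPD, a difference of 0.02 ± 0.12 (edgeR adjusted p = 0.963). Myd88 differed by −0.28 ± 0.15 (edgeR adjusted p = 0.463). In DC-like cells 0 of 18 were called between the drugs, beside 0.653% of all genes.

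None of the 5 NF-kB subunits was called between the drugs in these classes. Against saline 2 of 5, Nfkb1 (−0.89) and Rel (−1.24), named after their values were seen, were lower in monocyte/macrophage-like cells, beside 7.48% of all genes called. In DC-like cells 1 of 5, Nfkb2, named likewise, was higher against saline (1.06, edgeR adjusted p = 0.0056), beside 14.5% of all genes called. Of 16 inflammatory targets in monocyte/macrophage-like cells 2 rose between the drugs, beside 1.58% of all genes called. They were Lcn2, an iron-sequestering protein (622 against 11.1 CPM, edgeR adjusted p = 6.27e-06), and the chemokine Ccl5 (1048 against 434 CPM, edgeR adjusted p = 0.0335). In DC-like cells 3 of 14 rose between the drugs, beside 0.653% of all genes called. They were Lcn2 (5.16), Cxcl2 (2.15, edgeR adjusted p = 0.0117) and Il6 (1.65, edgeR adjusted p = 0.0241), the latter with 110 against 35.1 CPM. After medium R848-BPD, Lcn2 was at 127 CPM in DC-like cells and 3628 CPM in neutrophil-like cells. Neutrophil markers also rose in the DC-like sums, as given above, and the part of such RNA in these values was not tested. Of 15 cytokine receptors and STATs, 1 fell in monocyte/macrophage-like cells between the drugs, beside 1.58% of all genes called. Il10ra, the ligand-binding chain of the receptor for the inhibitory cytokine IL-10, was at 99.3 CPM after medium R848-BPD and 210 CPM after free R848 (−1.08 ± 0.15, edgeR adjusted p = 0.0152). It was not called in DC-like cells (−0.69 ± 0.26, edgeR adjusted p = 0.293).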

How the data were processed

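The deposited tables, 1 per tumor, hold unnormalized UMI counts (genes by cell barcodes) made by the authors. Per the submitters' processing notes, reads were demultiplexed with bcl2fastq and aligned to mm10 (GRCm38). The aligner and gene annotation are not given in the sources used here.

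Kept cells had between 400 and 10000 genes, under 50000 UMIs, and no more than 15% of UMIs from mitochondrial genes. Scrublet (expected rate 0.05) marked 67 cells, which stayed in. Cells were clustered with Seurat 5.3.0 (R 4.3.3), first with 30 principal components at a resolution of 0.8, and the nonmalignant cells again with 11 components at a resolution of 1.3. The 982 genes of the study's own comparison, the members and the list genes (1052 in all) were left out of this second clustering. The selection of variable genes was changed after clusters had been seen. Classes needed 3 markers, and tumors at least 10 cells per class.

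Summed counts were fitted over all 3 groups with edgeR 4.0.16 (TMM, filterByExpr, quasi-likelihood F test, Benjamini-Hochberg adjustment over all genes of a class). The SE is the log2 fold change divided by the root of F. The script was tested on simulated data. DESeq2 1.42.0 and other settings were alternatives. Replicate numbers are shared between groups, but the labels do not say that they pair tumors, so the numbers were not read as pairs. The deviations of tumors with the same number correlated at −0.25 to 0.27. Tumors with different numbers were not set beside them, so these values cannot decide on pairing. The labels name no cultures or litters, and p-values measure the spread between these tumors. Intervals and limits cover counting error only.

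The members and lists were chosen with earlier results of these data known. All members are named wherever they were tested. Of the lists, genes called between the drugs in monocyte/macrophage-like or DC-like cells without overlap of tumors are named (at most 8 per list), with Tlr7 and Myd88. Likeness names the 2 genes with the highest Pearson correlation of log2 CPM, with a prior count of 2, among genes with a mean of at least 3. Authors' fold changes were not used.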

Additional observations from a re-analysis of the deposited data

Results flagged for a closer look

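Results are given here because the test of a difference between classes passed its threshold. The log2 response of Nfkbia to medium R848-BPD against saline was 1.14 higher in DC-like than in monocyte/macrophage-like cells (edgeR adjusted p = 0.0358), with 0.64 in the former and −0.48 in the latter, neither of which was called alone. The share of the cluster led by Il12b in DC-like cells was 87.7% after medium R848-BPD and 23.9% after saline, and mean Nfkbia levels were 1524 and 1295 CPM within it and 699 and 854 CPM within the cluster led by Kmo. The part of this shift in the difference was not tested. The log2 response of Nfkbiz to medium R848-BPD against saline was 1.498 higher in MC38-like than in monocyte/macrophage-like cells (edgeR adjusted p = 0.0239), with 0.64 in MC38-like cells, which was not called, and −0.87 in monocyte/macrophage-like cells. Over all genes, the share called in these tests was 3.16% for DC-like and 2.35% for MC38-like cells, and 1 of the 10 members was called in each. Each of these calls was lost in some fits that left out 1 tumor, as given above.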

How the results depend on the processing

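Irak3 in monocyte/macrophage-like cells was called against free R848 and against saline in all 22 alternatives run (1.52 to 1.73 against free R848). Ikbke was lost in the monocyte-like clusters alone and in no other alternative. Of 170 alternatives of the 8 called values, 147 kept the call, 23 lost it and 0 reversed. Of 2763 alternatives of values that were not called, 45 were called and 172 changed sign while not called in either fit. No cluster of poor quality was found, so keeping one was not run.

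Counts of called members that moved by over 1.5 times were these. With no filter on low counts, monocyte/macrophage-like cells had 4, 5 and 1 (medium R848-BPD against free R848, medium R848-BPD against saline, free R848 against saline), DC-like cells 3 and 1 in the first and last of these, T-like cells 3, 1 and 1, and MC38-like cells 1 and 2 in the first and second. Of all genes these fits called 4.53%, 8.46% and 2.53%, then 1.6% and 2.81%, then 1.43%, 1.06% and 0.395%, then 2.52% and 3.33%. Monocyte-like clusters alone gave 1 and 1 in the first and last (3.83% and 1.06% of all genes). For DC-like cells against saline, medium R848-BPD gave 0 in the cDC2-like cluster alone, in the cluster with mature DC markers alone (both added after seeing the data) and with equal cell numbers (0.156%, 3.13% and 4.53% of all genes), and 4 with clusters from all variable genes and with only those groups fitted (15.2% and 18.6%). Free R848 against saline in DC-like cells gave 1 under DESeq2, in the cDC2-like and the mature cluster alone and with all variable genes (1.91%, 0.156%, 0.345% and 1.37%), and DESeq2 gave 1 for medium R848-BPD against saline in MC38-like cells (2.02%). Neutrophil-like cells gave 0 with cells gated singly and with equal cell numbers (1.26% and 0.143%). Leaving out 1 tumor gave 2 to 3, 2 to 6 and 0 to 1 in monocyte/macrophage-like cells, 0 to 2, 0 to 4 and 0 to 1 in DC-like cells, 0 to 1 for both medium R848-BPD comparisons in NK-like cells, 1 to 2 in neutrophil-like cells, and 0 to 4 called differences between classes. Without 1 medium R848-BPD tumor the tumor left is assumed to vary like those of the other groups.

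Thinning to 2000 UMIs in place of 1000 gave Irak3 shares of 27.5%, 9.06% and 7.93% (medium R848-BPD, free R848, saline) and Ikbke shares of 19.0%, 8.30% and 7.69%, and no thinning 52.6%, 23.2% and 17.2%, and 41.9%, 22.4% and 18.0%. With the replicate number as a block, which the design does not support as a pairing, members called were 2 between the drugs and 2 against saline in monocyte/macrophage-like cells (Nfkbiz −0.73, edgeR adjusted p = 0.073), 2 against saline in DC-like cells, and 0 in neutrophil-like cells, beside 0.693%, 4.23%, 9.39% and 0.0% of all genes (Irak3 2.06, edgeR adjusted p = 0.306). The block changed no other call of a member. Over all genes in monocyte/macrophage-like cells, those called between the drugs ranged from 16 without free R848 replicate 3 to 931 with no filter, against 167. With 2 medium R848-BPD tumors and under 20 UMIs per tumor for Irak3 in some classes, depth and tumor number limit the precision.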
